A study of Arabidopsis thaliana with 33 samples.

Results

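The 10 genes described here encode the HSP90 and ClpB chaperones of Arabidopsis thaliana, 7 HSP90 genes (HSP90.1 to HSP90.7) and 3 ClpB genes (HSP101, CLPB3 and CLPB4), of 27444 protein-coding genes on chromosomes 1 to 5. They were taken by locus name, and every peak of the deposited lists with its summit in a gene or within 1000 bp of either end was assigned to that gene. All 10 genes matched the gene table. This gave 488 peaks over 10 peak lists, and none of them was assigned to more than 1 of the 10 genes. Open chromatin had been profiled by DNase-seq, which reads DNA cut in accessible chromatin by the nuclease DNase I, and by FAIRE-seq, which reads the protein-free DNA of fixed chromatin. The seedlings were Columbia-0, 10 day old, grown on half-strength medium with sucrose, and no sorting of cells is stated, so the peaks pool the cell types of seedlings. They were exposed to heat (38 °C for 6 h), cold (4 °C for 24 h), salt (250 mM sodium chloride for 6 h) or drought (air drying for 1 h), or were left unstressed as the control. The 28 DNA libraries gave 1 pooled list per condition and assay, from 3 libraries each, and from 2 for cold, and the 5 RNA samples were not analysed here.

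HSP90 proteins are ATP-driven chaperones that fold and stabilise client proteins such as kinases, receptors and transcription factors, with co-chaperones that load clients and pace the ATPase cycle. ClpB proteins, also called HSP100, form rings that pull proteins out of aggregates together with HSP70. In plants both families have members in the cytosol and in the organelles. In heated leaves and seedlings, cytosolic HSP90.1 and HSP101 are classic targets of heat shock factors, which at normal temperature are held back by HSP70 and HSP90.

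Since each condition is represented by a single pooled list in each assay, replicate error is unknown, no test between conditions could be made, and each comparison below is between 2 lists. The DNase-seq lists held 57736 (heat), 64324 (cold), 55784 (salt), 45737 (drought) and 70807 (control) peaks, and the FAIRE-seq lists 85366, 63060, 90465, 92034 and 72789 in the same order. The read depth of the libraries is unknown, because the lists hold no read totals, and a longer list can hold more peaks at a gene. Peaks of a stress list without any base in common with the control list of that assay are termed gained, and control peaks without any base in common with the stress list are termed lost. Fold enrichment and the −log10 q behind each rank are the authors' own values. They are used to place a peak within its list, as the percentage of that list's peaks it outranks, and not to compare lists. Positions are in the build TAIR10. The gene table gives no strand, so distances are counted from the end with the lower coordinate (the lower end) or the upper end.

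All 10 genes carried at least 2 summits in each of the 10 lists. The window of a gene, the gene with 1000 bp either side, held a median of 5, 5, 4 and 4 DNase-seq summits in the heat, cold, salt and drought lists and 4 in control, where all protein-coding genes had medians of 3, 3, 2, 2 and 3. In FAIRE-seq the medians were 5, 4, 6.5, 6.5 and 4.5, against 3, 2, 3, 4 and 3 over all genes. The chaperone genes are longer than most, with a median length of 3999 bp, against 2078 bp over all protein-coding genes. Per kb of window the median number of DNase-seq summits was 0.799 in the heat list, 0.911 in the cold, 0.741 in the salt, 0.710 in the drought and 0.712 in the control list, against 0.610, 0.634, 0.496, 0.426 and 0.664 over all genes. For FAIRE-seq summits it was 0.968, 0.640, 0.979, 0.972 and 0.679 per kb in the same order, against 0.810, 0.588, 0.841, 0.865 and 0.691. In control the FAIRE-seq value was thus below that of all genes. DNase-seq peaks covered a median of 32.6% of the window under heat and 28.6% in control, where the medians of all genes were 18.8% and 20.4%. FAIRE-seq peaks covered 25.2% under heat and 19.7% in control, where the medians of all genes were 21.5% and 16.2%. HSP90.6 and HSP90.2 had the smallest DNase-seq coverage in control after HSP90.5, at 17.4% and 20.3%, and HSP101 the largest at 38.1%.

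**Figure D1:**
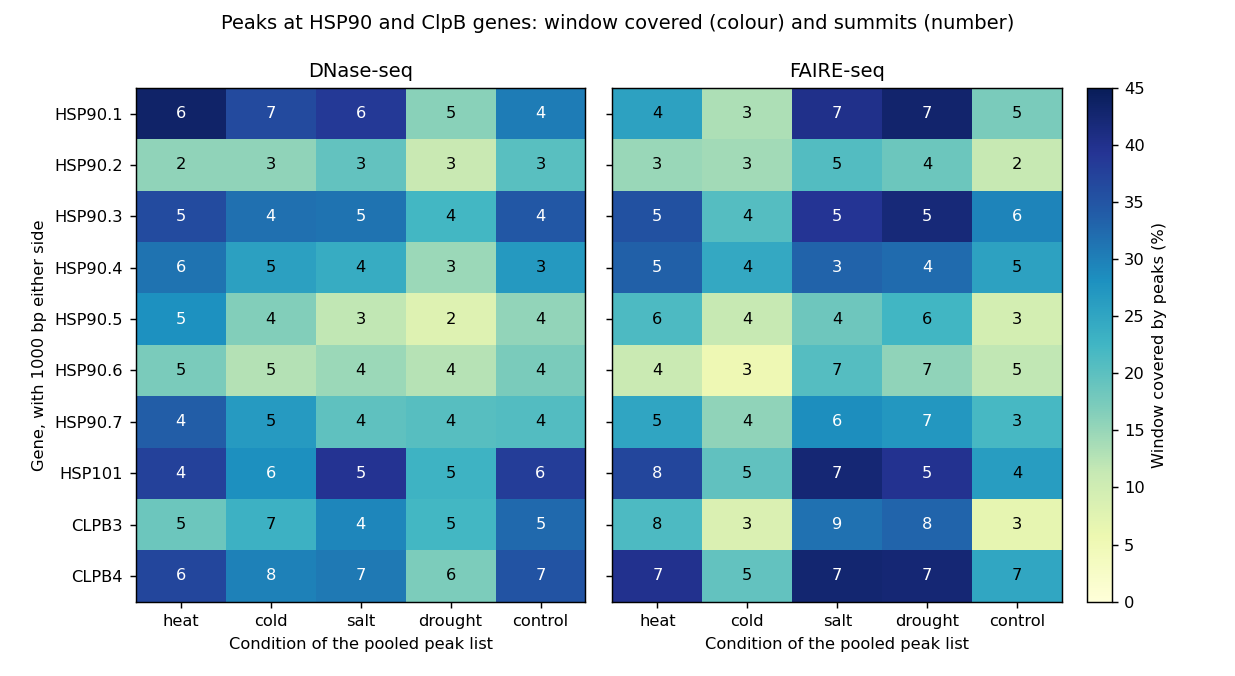
Each row is a gene with 1000 bp either side and each column a pooled peak list, with DNase-seq on the left and FAIRE-seq on the right. Colour gives the share of the window covered by peaks (%) and the number in each cell is the count of summits. HSP90.1 has the highest DNase-seq coverage under heat, 43.4%, and CLPB3 the lowest FAIRE-seq coverage in control, 6.67%.

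Most DNase-seq sites at these genes were shared by every condition. When overlapping peaks of the 5 DNase-seq lists were joined into sites, the 10 genes held 53 sites, of which 32 (60.4%) had a peak in all 5 lists, against 36.3% of the 69752 sites at all protein-coding genes. Only 1 site, in HSP101, was in the control list alone (1.89%, against 7.18%). Sites in the heat list alone numbered 6 (11.3%), one each at HSP90.1, HSP90.3, HSP90.4, HSP90.5, HSP90.6 and CLPB3, and this share was close to the 11.4% over all genes. The FAIRE-seq lists gave 71 sites, of which 29 (40.8%) were in all 5 lists, against 42.5% over all genes. Of the FAIRE-seq sites 2 were in the heat list alone (2.82%, against 2.55%), 7 in the salt list alone (9.86%, against 5.36%) and 4 in the drought list alone (5.63%, against 4.02%).

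Heat gained DNase-seq peaks at 6 of the 10 genes, against 45% of all protein-coding genes. Among the 8266 genes as long as the chaperone genes (2591 to 5396 bp) the share was 54.2%. In FAIRE-seq 8 of the 10 had a gained peak under heat, against 54.9% of all genes and 68.9% of genes as long. HSP90.1, HSP90.5, HSP90.6 and CLPB3 had one in both assays, 4 of 10, against 27.5% and 38.3%. The peaks of the 2 assays need not coincide in such a count, and of these genes HSP90.5 alone had gained peaks of both assays over the same bases. The gained FAIRE-seq peak of HSP90.1 had its summit in AT5G52650, 626 bp beyond the upper end of HSP90.1. With each summit given to the nearest gene alone, HSP90.1 had no gained FAIRE-seq peak under heat and CLPB3 no gained DNase-seq peak. Lost DNase-seq peaks were found at 5 of the 10 genes under heat, against 53.8% of all genes and 69.6% of genes as long (with lists of equal length 3, against 41.4% of all genes), and lost FAIRE-seq peaks at 2, HSP90.1 and HSP90.6, against 20.1% and 25.4%. HSP90.1 alone had a lost peak in both assays, against 12.1% and 18.3%. The counts of gained peaks lie near the shares of other genes of their length. The share of the window covered by DNase-seq peaks was nevertheless larger under heat than in control at 6 genes and smaller at 4, with a median difference of 1.77 percentage points, where the median over all genes was −1.08 and 41.6% of genes had a larger share. In FAIRE-seq it was larger under heat at 9 of the 10 genes, HSP90.6 excepted, against 83.3% of all genes.

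Cold left most DNase-seq peaks of the chaperone genes in place, as did the other stresses. Of the 44 control DNase-seq peaks, 2 were lost under cold, 6 under heat, 4 under salt and 9 under drought. Only 2 of the 10 genes, HSP90.5 and HSP101, had a lost DNase-seq peak under cold, against 42.2% of all genes and 55.6% of genes as long, and 4 had a gained one, HSP90.1, HSP90.4, HSP90.5 and HSP90.7, against 28.2% and 35%. The 2 lost peaks were weak, outranking 0.686% and 6.32% of the control list. With lists of equal length neither gene had a lost peak and HSP90.2, CLPB3 and CLPB4 did, against 33.2% of all genes. In FAIRE-seq 7 of the 10 had a lost peak under cold, against 56.9% and 67.9%, and 5 had a gained one, against 31.8% and 43.4%. HSP90.1 and HSP90.5 had a gained peak in both assays, at different places in the window, against 10.5% and 15.8%, and HSP101 a lost peak in both, against 26.1% and 38.3%. The covered share of the window was larger under cold at 3 genes in DNase-seq (HSP90.1, HSP90.5 and HSP90.7), against 23.9% of all genes, and at 3 in FAIRE-seq (HSP90.2, HSP90.5 and CLPB3), against 22.2%. In DNase-seq the median difference in coverage between cold and control was −3.61 percentage points, against −2.83 over all genes. The cold lists rest on fewer libraries than the control lists, and how that moves these counts was not tested.

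Under salt and drought few DNase-seq peaks and many FAIRE-seq peaks were gained. Salt gained DNase-seq peaks at 2 of the 10 genes, HSP90.1 and HSP101, against 3.21% of all genes and 4.48% of genes as long. Both peaks were among the weakest of the salt list, outranking 1.67% and 0.233% of it, and neither was gained when only peaks with a −log10 q of at least 5 were kept. DNase-seq coverage was larger under salt at the same 2 genes, against 11.6% of all genes. Lost DNase-seq peaks were found at 4 genes under salt, against 48.2% and 60.6%. With lists of equal length they were found at 0 of the 10, against 24.6% of all genes. Under drought 0 of the 10 had a gained DNase-seq peak, against 3.36% and 4.31%, and 6 had a lost one, against 62.1% and 76.3%. With lists of equal length 3 had a gained peak, against 12.6% of all genes in that setting, and 2 had a lost one, against 27.7%. The drought DNase-seq list was the shortest of all 10, and the window coverage was smaller under drought than in control at all 10 genes, where 3.87% of all genes had a larger share. In FAIRE-seq 8 of the 10 genes had a gained peak under salt and the same 8 under drought, all but HSP90.3 and HSP90.4. The shares over all genes were 64.1% for salt and 65.4% for drought, and 79.4% and 80.1% for genes as long. Which genes were without one depended on the setting. With a −log10 q of at least 5, all 10 had one under both stresses, against 69.4% and 70.1% of all genes. With lists of equal length 7 had one under salt and 8 under drought, HSP90.4 both times, against 46.7% and 46.4%. Lost FAIRE-seq peaks were found at 3 genes under salt, against 30.7% of all genes and 36.6% of genes as long (with lists of equal length 5, against 37.8% of all genes), and at 4 under drought, against 25.5% and 30.4%. In both assays together, HSP90.1 and HSP101 gained peaks under salt, at different places (against 2.5% and 3.87%) and none of the 10 under drought (2.4% and 3.58%). CLPB3 had a lost peak in both assays under salt (15.9% and 22.5%), and HSP90.4, CLPB3 and CLPB4 had one under drought (16.3% and 23.3%). FAIRE-seq coverage was larger at all 10 genes under salt and under drought, against 83.4% and 87.4% of all genes. All 4 stresses are set against the same control list of each assay, so their counts share it.

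**Figure D2:**
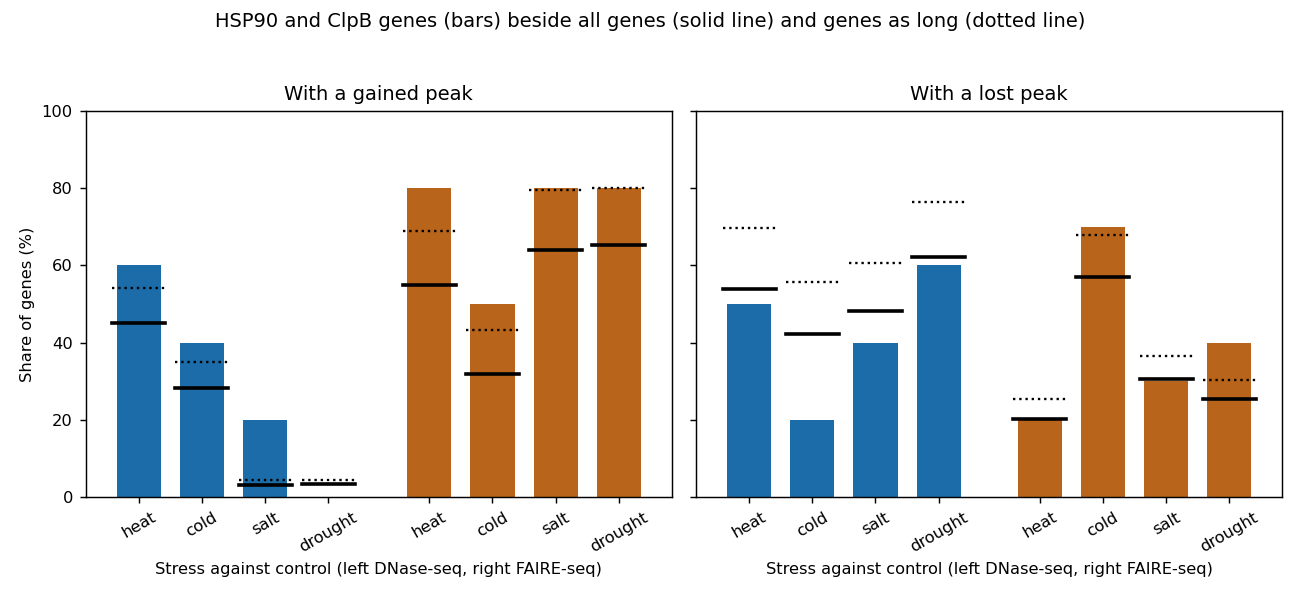
Bars give the share (%) of the 10 HSP90 and ClpB genes with a gained peak (left panel) or a lost peak (right panel) for each stress against control, DNase-seq in blue and FAIRE-seq in orange. The solid line is the share over all protein-coding genes and the dotted line that over genes as long as the 10, and under heat the DNase-seq bar for gained peaks stands at 6 of 10 beside 45% and 54.2%.

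Most gained heat DNase-seq peaks at the chaperone genes lay near a gene end. Of the 9 at the 10 genes, 6 had the summit within 300 bp of an end of some protein-coding gene, where 15 of all 48 heat DNase-seq peaks at these genes did. Over all genes 48.3% of gained heat peaks and 37.1% of all heat peaks lay that near an end. None of the 6 control DNase-seq peaks lost under heat at these genes lay there, against 17.8% of such peaks over all genes. Of the 9 gained peaks, 6 shared bases with a control FAIRE-seq peak, so those sites were already accessible to the other assay in unstressed seedlings, against 56.1% of gained heat DNase-seq peaks over all genes. Most gained peaks were of middling or low rank, and 3 of the 9 outranked at least 50% of the heat list, those of HSP90.5, HSP90.6 and CLPB3.

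DNase-seq peaks at these genes lay over FAIRE-seq peaks of their own condition more often under heat, salt and drought than under cold or in control, as over all genes. In the heat lists 85.4% of them did so (95% Wilson interval 72.8 to 92.8), in the cold lists 55.6% (42.4 to 68.0), in the salt lists 91.1% (79.3 to 96.5), in the drought lists 87.8% (74.5 to 94.7) and in the control lists 61.4% (46.6 to 74.3). Over all protein-coding genes the shares were 81.9%, 65.1%, 91.8%, 88.5% and 61.3%. The FAIRE-seq lists also differ in the bases they cover, 22.7 Mb for heat, 14.1 for cold, 26.2 for salt, 26.4 for drought and 17.5 for control. How far this sets the shares was not tested. Of the FAIRE-seq peaks at the 10 genes, 81.8% (69.7 to 89.8) overlapped DNase-seq peaks under heat, against 61.2% over all genes. The shares were 78.9% (63.7 to 88.9) under cold, 73.3% (61.0 to 82.9) under salt, 55.0% (42.5 to 66.9) under drought and 67.4% (52.5 to 79.5) in control, against 71.8%, 55.6%, 42.1% and 64.5%. The intervals cover counting error only, and peaks of one gene are not independent.

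HSP90.1 (AT5G52640), the cytosolic HSP90 best known for its induction by heat, lies on chromosome 5 between close neighbours, 223 bp from AT5G52630 and 393 bp from AT5G52650. Its window had 6 DNase-seq summits under heat, 7 under cold, 6 under salt, 5 under drought and 4 in control. DNase-seq peaks covered 43.4%, 36.3%, 38.6% and 16.1% of it under heat, cold, salt and drought, and 30.4% in control. This DNase-seq coverage exceeded that of 95.3% of all protein-coding genes in the heat list, 95.1% in the cold and 96.7% in the salt. The shares were 66.2% in the drought list and 80.5% in control. In FAIRE-seq the window had 4, 3, 7 and 7 summits under the stresses in that order and 5 in control, with coverage of 25.5%, 13.2%, 40.1% and 43.0% and 17.4% in control. At HSP90.1 DNase-seq coverage was thus highest under heat, and FAIRE-seq coverage under drought and salt. The strongest heat peaks of the gene lay inside its upper end in both assays, with summits 2411 bp (DNase-seq) and 2458 bp (FAIRE-seq) from the lower end, and they outranked 82.3% and 88.9% of their lists.

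The 2 gained DNase-seq peaks of HSP90.1 under heat were weak. That at 21354022 to 21354149 had an enrichment of 1.43-fold over local background and outranked 0.786% of the heat list. It lay next to a control peak at 21353872 to 21354008, itself lost under heat and outranking 0.876% of the control list, so the gained and the lost call came from neighbouring weak peaks. The other, at 21355321 to 21355531, lay 192 bp beyond the upper end and outranked 4.28%. Cold and salt each had a gained DNase-seq peak that neither heat nor drought had, with summits 795 and 832 bp inside the lower end, and control, heat, salt and drought had a FAIRE-seq peak over the same bases. The FAIRE-seq peak at 21352730 to 21352867, with its summit 239 bp inside the lower end, was lost under heat and cold. It had counterparts under salt and drought.

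HSP101 (AT1G74310), the cytosolic disaggregase that seedlings need to survive severe heat, overlaps AT1G74300 at its lower end by 101 bp. Its window had 4 DNase-seq summits under heat, 6 under cold, 5 under salt, 5 under drought and 6 in control, and 8, 5, 7 and 5 FAIRE-seq summits under the stresses and 4 in control. FAIRE-seq summits were thus most numerous under heat, and DNase-seq summits fewest. DNase-seq coverage was nearly level between heat (37.6%) and control (38.1%), with 28.3% under cold, 39.4% under salt and 23.0% under drought. FAIRE-seq coverage was highest under salt (42.2%) and drought (39.7%), with 36.8% under heat, 19.6% under cold and 26.3% in control. Of its 6 DNase-seq sites, 3 were in all 5 lists, just outside the lower end and in the lower part of the gene. Beyond 2549 bp from the lower end of this gene of 3862 bp, DNase-seq had 1 peak under salt and 1 in control, both weak. The control peak at 27939554 to 27939695, 773 bp inside the upper end, was in no DNase-seq list of a stress, and it outranked 6.32% of the control list. The salt FAIRE-seq list had a gained peak over part of it, at 27939516 to 27939624.

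HSP101 had 4 gained FAIRE-seq peaks in the heat list, 1 in the cold, 3 in the salt and 1 in the drought list. The strongest, at 27940189 to 27940306, had its summit 113 bp inside the upper end, was enriched 2.48-fold and outranked 77.6% of the heat list. No other FAIRE-seq list and no DNase-seq list of heated seedlings had a peak there. The other 3 outranked 31.6%, 9.14% and 5.63%, and 2 of them lay in AT1G74300, over control DNase-seq peaks. The FAIRE-seq peak 170 bp outside the lower end in control seedlings, at 27936243 to 27936421, had counterparts under heat, salt and drought and was lost under cold.

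HSP90.4, HSP90.3 and HSP90.2 (AT5G56000, AT5G56010 and AT5G56030) are constitutive cytosolic HSP90 genes that stand close together on chromosome 5, within 12.3 kb, with AT5G56020 between HSP90.3 and HSP90.2. Their coding sequences are near-identical, so the authors' alignment may have placed short reads in one copy or another, and levels of single copies are uncertain. HSP90.4 had 6, 5, 4 and 3 DNase-seq summits under heat, cold, salt and drought and 3 in control, HSP90.3 had 5, 4, 5 and 4 and 4 in control, and HSP90.2 had 2, 3, 3 and 3 and 3 in control. In FAIRE-seq HSP90.4 had 5, 4, 3 and 4 and 5 in control, HSP90.3 had 5, 4, 5 and 5 and 6 in control, and HSP90.2 had 3, 3, 5 and 4 and 2 in control. HSP90.2 had the smallest DNase-seq coverage of the 3 in every list, between 10.9% under drought and 20.3% in control.

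Heat added a DNase-seq peak near 1 end of both HSP90.3 and HSP90.4, and at neither did any other condition have a DNase-seq peak there. At HSP90.3 it lay at 22681339 to 22681596, with the summit 261 bp inside the lower end and an enrichment of 2.01-fold, and no control or heat FAIRE-seq peak covered it. It outranked 47.1% of the heat list. At HSP90.4 the peak lay at 22679870 to 22680064, with the summit 193 bp inside the upper end, and outranked 29.2%. The control and heat FAIRE-seq lists had a peak over the same bases, and the FAIRE-seq lists of cold, salt and drought did not. HSP90.4 gained a further DNase-seq peak under heat and under cold, with summits 571 and 554 bp inside the upper end, inside the range of its control FAIRE-seq peak. HSP90.2 gained no DNase-seq peak under any stress and lost one under heat, at 22687664 to 22687926, which outranked 38.7% of the control list and had counterparts under cold, salt and drought. In FAIRE-seq HSP90.2 gained a peak 341 bp inside its upper end under heat, at 22689265 to 22689406, outranking 68.4% of the heat list, with counterparts under salt and drought. All 5 DNase-seq lists had a peak over those bases.

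**Figure D3:**
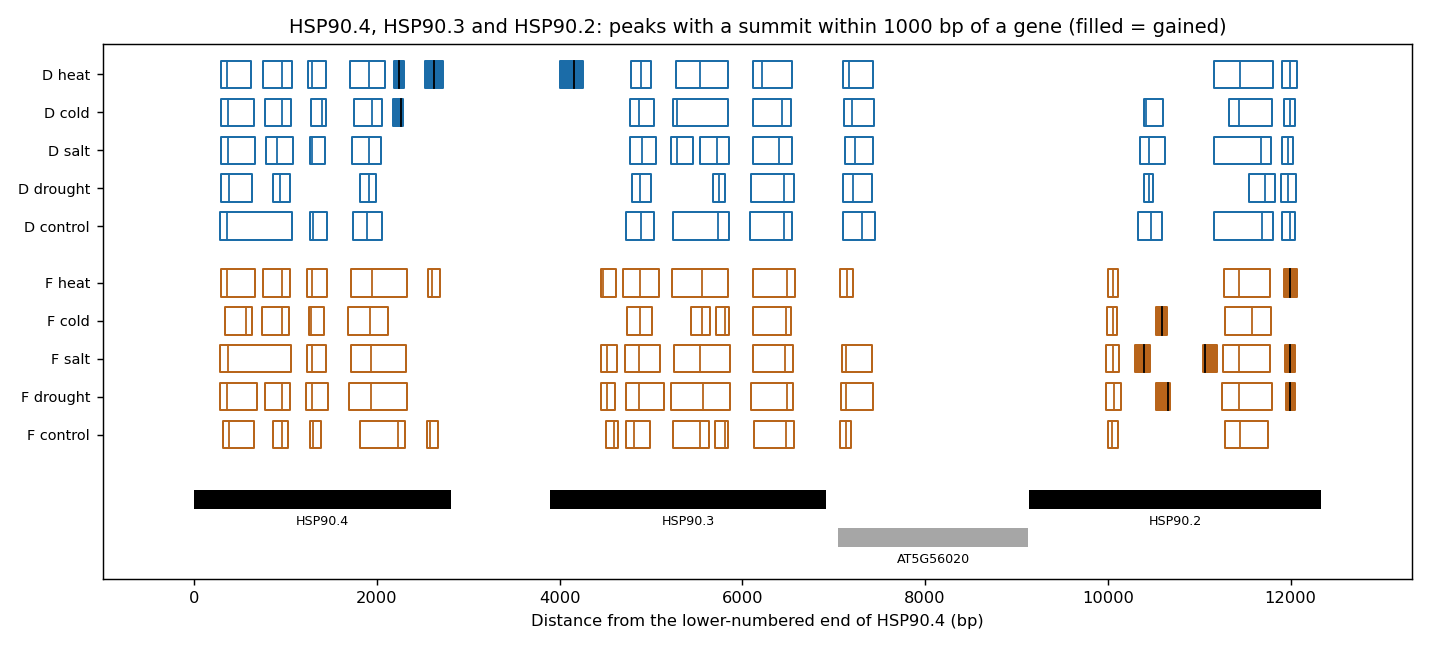
Peaks along HSP90.4, HSP90.3, AT5G56020 and HSP90.2, by distance (bp) from the lower end of HSP90.4, with 1 row per list (D for DNase-seq, F for FAIRE-seq). Boxes are peaks, the line in each is the summit, filled boxes are gained against control, and bars below are genes. Filled DNase-seq boxes are confined to HSP90.4 under heat and cold and HSP90.3 under heat.

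HSP90.5 (AT2G04030), the chloroplast stroma HSP90 with roles in protein import and plastid development, stands apart from other genes, with 3992 and 3687 bp to its neighbours. It had 5, 4, 3 and 2 DNase-seq summits under heat, cold, salt and drought and 4 in control, and 6, 4, 4 and 6 FAIRE-seq summits and 3 in control. DNase-seq peaks covered 28.0% of the window in the heat list, 16.6% in the cold, 11.7% in the salt and 7.76% in the drought list, and 15.3% in control. Heat was the only DNase-seq list above 20% there. All 5 FAIRE-seq lists had their strongest peak of this gene over the lower end, with summits 27 to 66 bp outside it, and it outranked 98.5% of the list under heat, 96.4% for cold, 96.4% for salt, 96.1% for drought and 97.7% in control. DNase-seq had a peak at this place under heat and cold alone. The heat peak, at 1281621 to 1281805, was enriched 3.31-fold, with a rank above 87.4% of its list, the highest rank among the gained DNase-seq peaks at the 10 genes, and the cold peak, at 1281608 to 1281763, outranked 56.9% of its list. In every DNase-seq list a stronger peak lay inside the lower end, with its summit at 337 bp under heat and cold, 355 bp under salt, 354 bp under drought and 364 bp in control, and it outranked 97.5%, 94.2%, 91.0%, 92.7% and 96.2% of those lists.

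Farther inside HSP90.5, both assays gained a peak over the same bases under heat, with summits 778 bp (DNase-seq) and 789 bp (FAIRE-seq) from the lower end. It outranked 15.1% and 70.1% of the heat lists. The DNase-seq peak was in no other list, and the FAIRE-seq peak had a counterpart under drought. Each stress also gained a FAIRE-seq peak near the upper end, with summits 251 bp (heat), 377 bp (cold), 407 bp (salt) and 369 bp (drought) inside it, where all 5 DNase-seq lists had a peak. The upper DNase-seq peak of the heat list, with its summit 4006 bp from the lower end, outranked 98.4% of that list, the highest of any DNase-seq peak at the 10 genes under heat.

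HSP90.6 (AT3G07770), the mitochondrial HSP90, lies 171 bp from a neighbour on either side and is the longest of the 10 genes. It had 5, 5, 4 and 4 DNase-seq summits under heat, cold, salt and drought and 4 in control, with coverage between 12.6% under drought and 17.4% under heat and in control. Of its 5 DNase-seq sites, 4 were in all 5 lists. In FAIRE-seq it had 4, 3, 7 and 7 summits and 5 in control. Heat gained a DNase-seq peak at 2478988 to 2479327, with its summit 184 bp inside the lower end and an enrichment of 2.07-fold, which outranked 51.7% of the heat list. FAIRE-seq had a peak over it under heat, cold and in control, and that FAIRE-seq peak was lost under salt and drought. Salt gained 5 FAIRE-seq peaks and drought 4 with summits from 1681 bp inside the lower end onwards. Of these, 6 lay over no control DNase-seq peak and outranked between 8.66% and 40.4% of their lists.

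HSP90.7 (AT4G24190), the HSP90 of the endoplasmic reticulum, also called SHEPHERD, is known from its role in CLAVATA signalling in the shoot meristem. It was the only HSP90 gene at which every DNase-seq site, 4 in all, had a peak in all 5 lists. It had 4, 5, 4 and 4 DNase-seq summits under heat, cold, salt and drought and 4 in control, and 5, 4, 6 and 7 FAIRE-seq summits and 3 in control. DNase-seq coverage was 33.8% in the heat list, 26.7% in the cold, 19.8% in the salt and 20.4% in the drought list, and 20.9% in control. The heat peak over its upper end was 1136 bp long, with its summit 278 bp beyond that end, inside AT4G24200. It spanned the whole joined site there, where the peaks of salt, drought and control were 175, 253 and 159 bp long. The FAIRE-seq peak just inside the upper end was among the strongest at all 10 genes. Its summit lay 4471 bp (heat), 4467 bp (cold), 4478 bp (salt), 4493 bp (drought) and 4468 bp (control) from the lower end of a gene of 4507 bp, and it outranked 98.3%, 99.2%, 97.5%, 95.3% and 99.3% of those lists. Besides the peak at the lower end of HSP90.5, no other FAIRE-seq site at the 10 genes ranked as high in all 5 lists, and at HSP90.7 all 5 DNase-seq lists had a peak there too. The gained DNase-seq peak of cold, at 12555714 to 12555841, lay 279 bp inside the same end and outranked 43.5% of the cold list.

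CLPB3 (AT5G15450), the chloroplast ClpB needed for chloroplast development, had smaller DNase-seq and larger FAIRE-seq coverage than control under all 4 stresses. DNase-seq peaks covered 18.5% of its window in the heat list, 23.2% in the cold, 29.2% in the salt and 22.2% in the drought list, and 32.5% in control. FAIRE-seq peaks covered 21.4%, 8.38%, 31.5% and 32.9% under the stresses in the same order, and 6.67% in control. The control FAIRE-seq coverage was larger than that of 14.6% of all genes, and the control DNase-seq coverage larger than that of 85.0%. There were 5, 7, 4 and 5 DNase-seq summits under heat, cold, salt and drought and 5 in control, and 8, 3, 9 and 8 FAIRE-seq summits and 3 in control. HSP90.2 also had smaller DNase-seq and larger FAIRE-seq coverage than control under all 4 stresses, and HSP101 had both under heat. Under salt DNase-seq coverage was smaller at 8 of the 10 genes and FAIRE-seq coverage larger at all 10. Under drought all 10 genes had smaller DNase-seq and larger FAIRE-seq coverage. Over all genes, 41.6% had larger coverage under heat in DNase-seq and 83.3% in FAIRE-seq. Those shares were 11.6% and 83.4% under salt, and 3.87% and 87.4% under drought.

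The control DNase-seq peaks lost under heat at CLPB3 were the highest-ranked of all lost DNase-seq peaks at the 10 genes, under any stress. They lay in the body of the gene at 5015538 to 5016033 and 5016346 to 5016673, were enriched 3.41-fold and 3.54-fold, and outranked 70.4% and 74.0% of the control list. Cold, salt and drought kept a peak over both. Neither had a control FAIRE-seq peak, and the FAIRE-seq lists of all 4 stresses gained a peak over the second of them, with summits 2171 bp (heat), 2351 bp (cold), 2299 bp (salt) and 2363 bp (drought) from the lower end. Besides the peaks near the upper end of HSP90.5, which joining had merged with a neighbouring control peak into 1 site, this was the only place at the 10 genes where the FAIRE-seq lists of all 4 stresses gained a peak over the same bases. At this site the heat libraries thus had a FAIRE-seq peak without a DNase-seq peak, and the control libraries the reverse. The gained DNase-seq peak of heat lay 389 bp beyond the upper end, 56 bp inside AT5G15460 (MUB2), over FAIRE-seq peaks of heat and control. Heat, salt and drought each gained further FAIRE-seq peaks in the window of CLPB3, 5, 7 and 6 in all, where cold gained 1. Those of heat outranked between 7.53% and 47.0% of the heat list.

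CLPB4 (AT2G25140), the mitochondrial ClpB, had 1 gained FAIRE-seq peak and 1 lost DNase-seq peak under heat. It had 6, 8, 7 and 6 DNase-seq summits under heat, cold, salt and drought and 7 in control, and 7, 5, 7 and 7 FAIRE-seq summits and 7 in control. DNase-seq coverage was 36.9%, 29.8%, 30.6% and 17.1%, and 35.0% in control. It gained no DNase-seq peak under any stress, and 5 of its 7 sites were in all 5 lists. The DNase-seq peak lost under heat, at 10698987 to 10699100, was weak, outranking 10.6% of the control list. Heat, salt and drought gained a FAIRE-seq peak over the same bases inside the lower end, with summits at 462, 320 and 385 bp, and all 5 DNase-seq lists had a peak there.

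**Figure D4:**
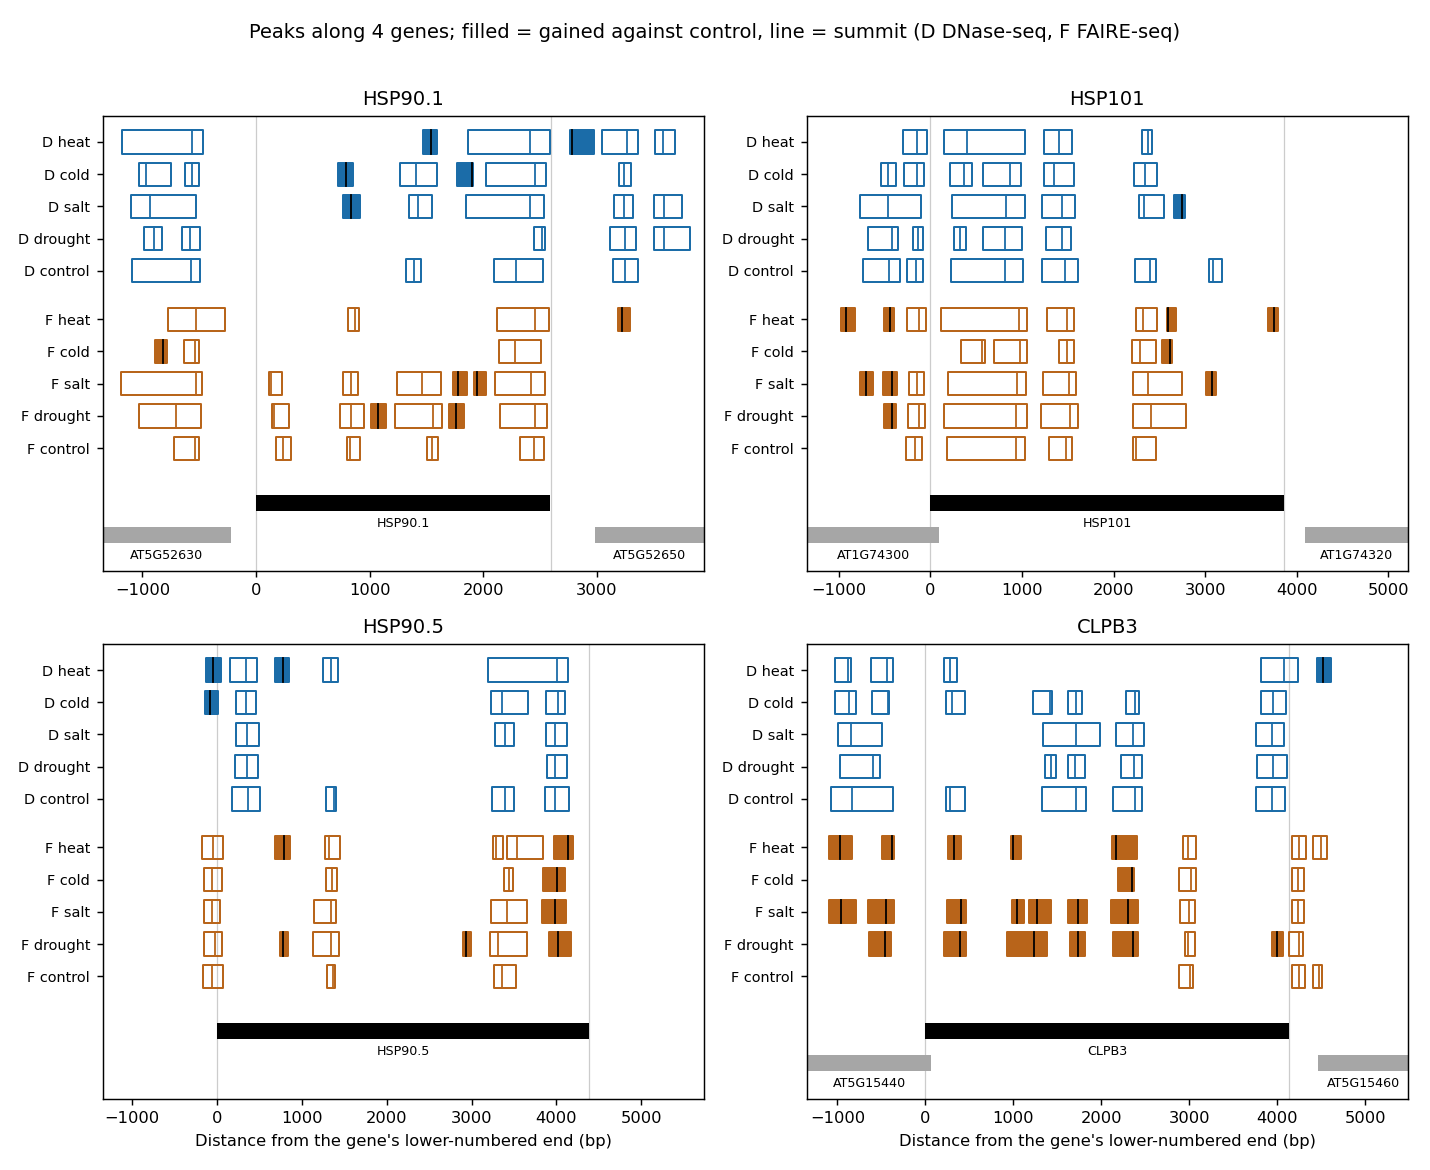
Peaks along HSP90.1, HSP101, HSP90.5 and CLPB3, by distance (bp) from the lower end of each gene, with 1 row per list (D for DNase-seq, F for FAIRE-seq). Boxes are peaks, the line in each is the summit, filled boxes are gained against control, and bars below are the gene (black) and its neighbours (grey). In CLPB3 the heat DNase-seq row has no summit between 283 and 4078 bp, where heat, cold, salt and drought have filled FAIRE-seq boxes.

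Many peaks counted for these genes lay in a neighbouring gene. Of the 48 heat DNase-seq peaks, 32 had the summit within 1 of the 10 genes, 14 in a neighbour and 2 between genes. In control the numbers were 32, 11 and 1 of 44. In FAIRE-seq they were 40, 13 and 2 of 55 under heat and 33, 8 and 2 of 43 in control. The share between genes over all gene windows was 13.6% for heat DNase-seq and 8.07% for control DNase-seq.

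Genes that work with HSP90 and ClpB were counted the same way. Heat gained a peak in both assays at 7 of 12 HSP90 co-chaperone genes and 6 of 12 HSP70 and BiP genes. It did so at 6 of 12 heat shock factor genes and all 4 other Clp ATPase genes, 23 of 40 in all. The chaperone genes had 4 of 10, all protein-coding genes 27.5%, and genes as long as the 10 chaperone genes 38.3%. The 40 related genes have a median length of 2782 bp. The co-chaperones were Hop2 and Hop3, which link HSP70 to HSP90, SGT1A and PBS2 (RAR1), which hold immune receptors on HSP90, the FKBP-type isomerases ROF1 and AT5G48570 (ROF2), and AT3G12050. Of these, SGT1A, PBS2, ROF1 and AT3G12050 also lost a peak in both assays under heat. With Hop1, 5 of the 12 co-chaperone genes did so, and 7 of the 40, against 12.1% of all genes and 18.3% of genes as long as the 10. The Clp ATPases were CLPC1 and HSP93-III (ClpC2) of the chloroplast, ERD1 (CLPD) and CLPX. Under cold 7, under salt 2 and under drought 3 of the 40 gained a peak in both assays, against 10.5%, 2.5% and 2.4% of all genes. Among genes as long as the 10 the shares were 15.8%, 3.87% and 3.58%. Losses in both assays were found at 7 of the 40 under cold, 11 under salt and 10 under drought. Their shares were 26.1%, 15.9% and 16.3% over all genes, and 38.3%, 22.5% and 23.3% over genes as long as the 10.

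The genes whose coverage was most like that of HSP101 over the 10 lists were SAP130a (AT3G55200), AT1G54310 and AT1G71210, with mean absolute differences of 1.99, 2.14 and 2.21 percentage points, where the median over all genes was 14.7. For HSP90.1 they were AT5G18636, ERF1-2 (AT1G12920) and CPSUFE (AT4G26500), with 3.64, 3.69 and 3.94 percentage points and a median of 13.2.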

How the data were processed

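Per the labels, each deposited peak list belongs to all libraries of a condition and assay, so replicates are pooled, by a step that no source used here describes. Per the submitters' processing notes, the tools include Bowtie2, SAMtools and MACS2 and the build is TAIR10. Versions, and any shifting or extension of reads, are not stated. For each peak the deposited lists hold a fold enrichment (a ratio over local background), −log10 of the q-value, the lowest being 2.04, and the summit offset in bases, as the authors' peak caller wrote them. Titles mark libraries D or F, read as DNase-seq and FAIRE-seq. Depth is unknown, so precision per library cannot be given.

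Genes were placed with a RefSeq table (assembly TAIR10.1), and none of its coordinates is printed. Strong control FAIRE-seq summits were densest within 150 bp outside gene ends on all 5 chromosomes. Promoter and protein sequences were not analysed here. Overlaps were computed in Python 3.11.15 with pandas 2.3.3 and tested on simulated data. No test was made between lists. The genes, lists and rules were chosen with earlier results of these data known. All 10 genes are named, with related genes called in both assays under a stress, and the 3 genes nearest in coverage to HSP90.1 and HSP101. Genes as long as the 10 were added as a background after seeing the data. Alternatives are given at the end.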

Additional observations from a re-analysis of the deposited data

How the results depend on the processing

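The 16 counts of genes with a gained or lost peak were recomputed with only peaks of −log10 q of at least 5, with lists of equal length (45737 DNase-seq and 63060 FAIRE-seq peaks), with at least 50% of a peak covered to count as shared, with 500 bp either side, and with each summit given to the nearest gene alone. Of these 80 values, 73 stayed within 1.5 times the reported count. The counts do not say that the genes were the same: with lists of equal length, lost DNase-seq peaks under cold were found at HSP90.2, CLPB3 and CLPB4 in place of HSP90.5 and HSP101. With −log10 q of at least 5, 1 gene had a gained DNase-seq peak under salt, HSP90.4, in place of HSP90.1 and HSP101 (2.47% of all genes). With lists of equal length, lost DNase-seq peaks were found at 3 genes under heat (41.4% of all genes), 0 under salt (24.6%) and 2 under drought (27.7%), gained DNase-seq peaks at 3 genes under drought (12.6%), and lost FAIRE-seq peaks at 5 genes under salt (37.8%). With at least 50% covered, lost FAIRE-seq peaks were found at 5 genes under salt (37.2%). Why these counts moved was not tested. No paired analysis was possible because each group's libraries are pooled in 1 list, and for the same reason no library could be left out. Planned motif and protein comparisons were not run.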
